A study of Mus musculus with 8 samples.

Results

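Leukocyte adhesion and extravasation depend on receptor and ligand pairs, with partners on the vessel wall and on the blood cell. Of 24823 genes in the count table of neonatal mouse ovaries, 9 such genes were examined, each chosen by name for its role. The choice was made with earlier results of these data known. The 4 endothelial partners were *Selp* and *Sele*, which encode P-selectin and E-selectin, and *Icam1* and *Vcam1*, which encode intercellular and vascular cell adhesion molecules. The 5 leukocyte partners were *Selplg*, *Itgb2*, *Itgal*, *Itgam* and *Coro1a*. All 9 were in the table under their NCBI gene identifiers. The question was whether the transcripts of each side differed when NR5A2 (LRH-1), an orphan nuclear receptor of granulosa cells, had been deleted. Whole ovaries of C57BL/6 mice were collected on postnatal day 4 (PND4). Conditional knockout (cKO) mice were *Nr5a2* fl/fl and carried an *Amhr2*-Cre allele (*Amhr2* Cre/+). Control (CON) littermates were *Nr5a2* fl/fl without Cre. The floxed alleles were thus shared by both genotypes, whereas the Cre allele at *Amhr2* was in cKO alone. Each genotype gave 4 libraries, numbered 1 to 4 in the order of the table's column names. The *Amhr2* promoter drives Cre in granulosa cells, and neither endothelium nor leukocytes were its intended targets.

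Leukocytes leave the blood in steps. Selectins on activated endothelium catch passing cells by the sugars on P-selectin glycoprotein ligand 1, the product of *Selplg*, and the cells roll. Chemokine signals then switch leukocyte integrins to a binding state. The integrins LFA-1 (the *Itgal* subunit with the shared beta chain *Itgb2*) and Mac-1 (*Itgam* with *Itgb2*) hold to ICAM-1, whereas VCAM-1 is bound mainly by integrins with the alpha 4 chain. The arrested cell crawls and crosses the vessel wall, which requires remodelling of its actin by coronin 1A (*Coro1a*) among others. P-selectin is stored in endothelial and platelet granules, whereas E-selectin is made anew after cytokine stimulation. In adult ovaries leukocytes are known as participants in ovulation and in the formation and regression of corpora lutea.

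The genes lie at known places in GRCm38. *Sele* (chr1:164039614-164058487) and *Selp* (chr1:164115264-164150026) lie on the plus strand of chromosome 1, 56.8 kb apart. *Coro1a* (chr7:126699774-126704816, minus strand), *Itgal* (chr7:127296139-127335137) and *Itgam* (chr7:128062640-128118491) follow each other on chromosome 7, 591 kb and 728 kb apart. *Icam1* is at chr9:21015940-21028814, *Itgb2* at chr10:77530329-77565708, both on the plus strand, and *Vcam1* at chr3:116110020-116129688 and *Selplg* at chr5:113817798-113832528 are on the minus strand.

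RefSeq promoter windows of 300 bases (GRCm38.p6, 250 bases before the transcription start and 50 after it) were matched to 5 of the 9 members, *Selp*, *Sele*, *Icam1*, *Itgam* and *Coro1a*. Shown are *Selp*, the member that passed the test, its neighbour *Sele*, the other endothelial partner *Icam1*, and *Itgam* as a leukocyte partner. Capitals mark matches on either strand to 3 short motifs, of which no 2 overlapped in these windows. The first is GAGGAA, the core of the site of the myeloid transcription factor PU.1, which reads TTCCTC on the opposite strand. The second is TATAAA, the TATA box. The third is CAAGGNC, the half-site of the NR5A receptors, with N for any base. The windows are chr1:164115014-164115313, chr1:164047984-164048283, chr9:21015690-21015989 and chr7:128062390-128062689, all on the plus strand. The *Sele* window lies inside the gene interval given above (from 164039614), so its start site is not the first base of that interval.
*Selp*: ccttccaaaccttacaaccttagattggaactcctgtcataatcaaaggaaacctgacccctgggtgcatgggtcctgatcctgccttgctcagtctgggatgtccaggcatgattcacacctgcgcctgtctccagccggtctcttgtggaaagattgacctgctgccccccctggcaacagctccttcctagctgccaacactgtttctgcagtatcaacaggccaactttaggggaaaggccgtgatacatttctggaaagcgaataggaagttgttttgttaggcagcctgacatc
*Sele*: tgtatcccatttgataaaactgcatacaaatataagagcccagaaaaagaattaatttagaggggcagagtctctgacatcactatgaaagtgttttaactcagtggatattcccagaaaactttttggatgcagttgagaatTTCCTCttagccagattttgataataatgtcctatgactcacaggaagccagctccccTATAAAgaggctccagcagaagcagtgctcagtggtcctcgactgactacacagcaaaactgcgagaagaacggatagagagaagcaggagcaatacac
*Icam1*: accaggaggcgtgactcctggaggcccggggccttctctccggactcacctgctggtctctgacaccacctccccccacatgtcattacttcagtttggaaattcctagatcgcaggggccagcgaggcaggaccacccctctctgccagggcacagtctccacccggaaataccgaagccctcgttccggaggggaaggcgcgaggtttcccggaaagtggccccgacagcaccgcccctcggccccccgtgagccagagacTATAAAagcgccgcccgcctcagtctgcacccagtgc
*Itgam*: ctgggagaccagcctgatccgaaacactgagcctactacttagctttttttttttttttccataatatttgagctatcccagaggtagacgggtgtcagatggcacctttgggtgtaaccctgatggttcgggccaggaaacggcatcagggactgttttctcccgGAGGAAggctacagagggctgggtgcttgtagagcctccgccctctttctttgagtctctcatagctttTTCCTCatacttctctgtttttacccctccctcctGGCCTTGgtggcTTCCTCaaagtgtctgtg
The *Selp* window is in lower case throughout, because no match was found in it. *Sele* held TTCCTC from position -107 to -102 and TATAAA from -49 to -44, counted from the start site. *Icam1* held TATAAA from 14 to 19, which is after the annotated start. *Itgam* held GAGGAA from -84 to -79, TTCCTC from -15 to -10 and from 33 to 38, and GGCCTTG from 21 to 27. The NF-kappaB consensus is the site of the factor through which inflammatory cytokines act. It was searched on both strands as GGGRNWYYCC (R purine, W A or T, Y pyrimidine), and no window held an exact match. Sites that differ from this pattern by any base were not searched for, so their absence is not shown. *Coro1a* held none of the 4 motifs. Of 32851 promoter windows, 28.3% held GAGGAA, 13.6% TATAAA, 17.8% CAAGGNC and 4.51% the NF-kappaB consensus, and the matches are given as a description. The half-site was added to the search after the expression values had been seen.

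The libraries held 14649243 to 29066847 assigned reads, and 15257 genes had enough counts to be tested by edgeR's quasi-likelihood test. Levels are in CPM, the reads of a gene scaled to the assigned reads of its library, after TMM scaling for library composition. Values are listed in library order, 1 to 4. A gene passed the test at a Benjamini-Hochberg adjusted p under 0.05 with a fold change of at least 1.5, and 136 genes passed higher and 79 lower in cKO. Gene-level counts of *Nr5a2* do not measure the deleted exons and were higher in cKO, from 23.0 to 31.0 CPM, than in CON, from 12.2 to 18.4 CPM. Oocyte, granulosa and stromal markers were tested in full (7 of 7, 6 of 6 and 6 of 6), whereas 3 of the 8 T cell markers in the table had enough counts. The oocyte markers differed with genotype, with a sum of 318 to 497 CPM among CON and 518 to 654 CPM among cKO libraries. All 7 had a positive log2 fold change (median 0.58), and 2, *Ddx4* and *Dazl*, passed higher. At an unadjusted p under 0.05, 7 of 7 were higher, beside 2371 of 15257 tested genes. The part of the oocyte markers in the results of the adhesion genes was not tested. CON 1 and CON 3 stood apart by their markers of neutrophils and red cells, and cKO 1 and cKO 2 were separated from cKO 3 and cKO 4 by *Vcam1*. Several member results that rest on these libraries are therefore also given without them. By the study's account replicates are animals of each genotype, which the labels do not state for single libraries, and p-values measure the spread between these libraries.

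Among the adhesion genes, *Selp* was the member that passed the test, lower in cKO. Of the 9 members 8 had enough counts to be tested, and *Sele* did not. Of the 8, 1 passed lower and 0 passed higher, and 0.518% of all tested genes passed lower. All 8 had a negative log2 fold change, which 50.1% of all tested genes had. At an unadjusted p under 0.05, 4 members were lower (*Selp*, *Selplg*, *Itgb2* and *Coro1a*), beside 13.3% of all tested genes. These same 4 genes stand in the migration terms that the study drew from its own list of changed genes in these libraries, so their direction is not independent evidence. The median log2 fold change was -0.19 over the 3 tested endothelial partners and -0.62 over the 5 leukocyte partners, whereas the median over all tested genes was -0.00. In whole ovaries, fewer cells of a type and less RNA per cell cannot be told apart.

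**Figure D1:**
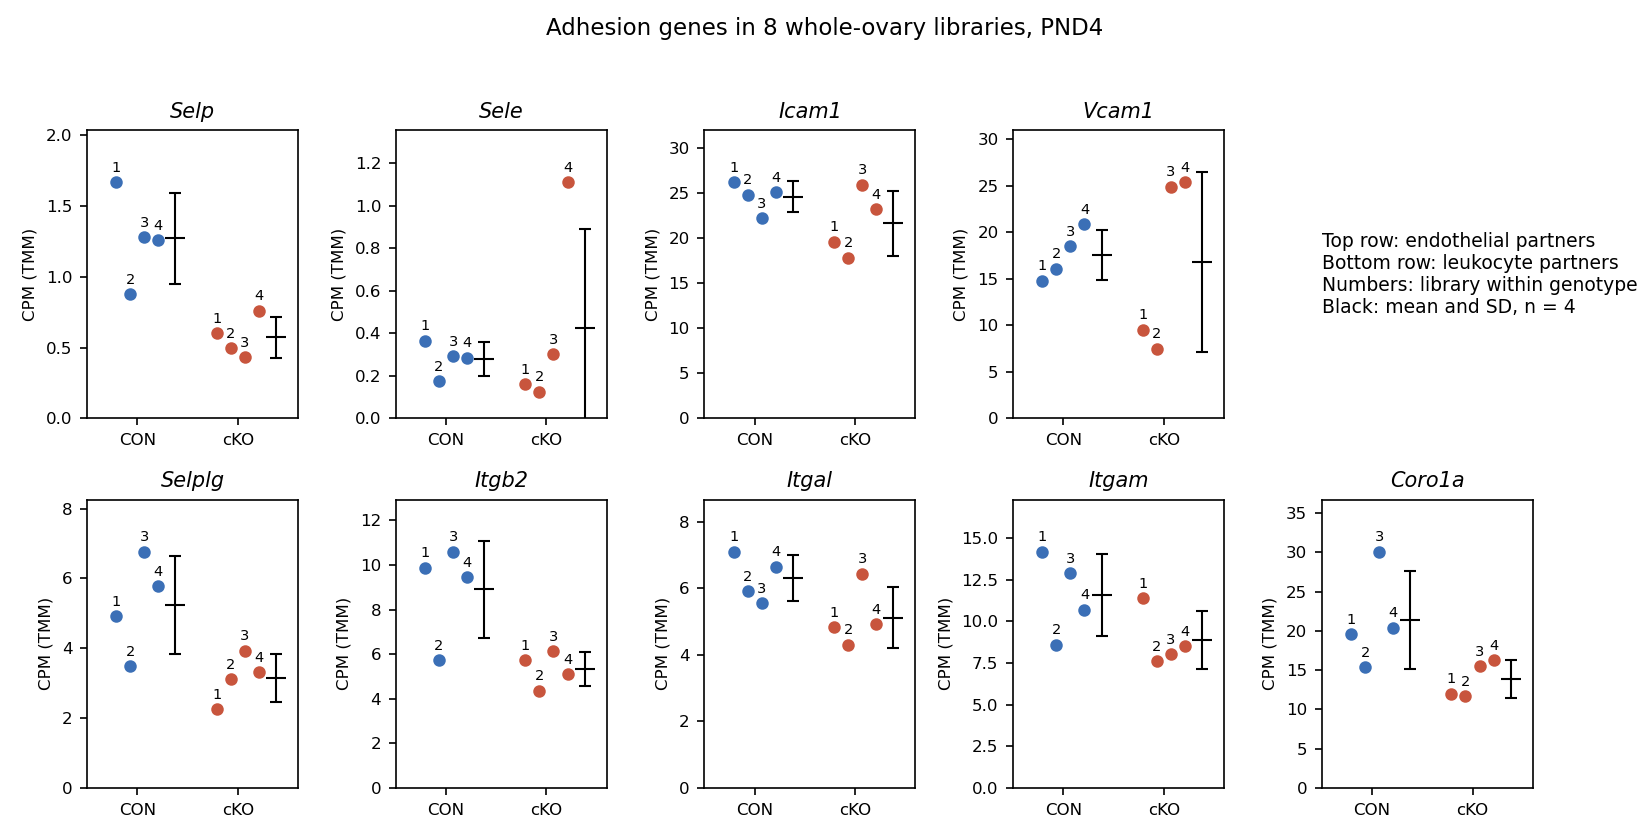
CPM (y axis, starting at 0) of each of the 9 adhesion genes in the 4 CON and 4 cKO libraries, with the library number above each point and the mean and SD in black (n = 4 per genotype). For *Selp* the 4 cKO libraries, up to 0.760 CPM, lie below the 4 CON libraries, from 0.879 CPM, and for *Vcam1* the cKO libraries split into 2 low and 2 high values.

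*Selp* was a rare transcript in both genotypes. It stood at 1.67, 0.879, 1.28 and 1.26 CPM across the CON libraries and at 0.602, 0.498, 0.432 and 0.760 CPM across the cKO libraries. These levels rest on 32, 25, 22 and 22 reads in CON and on 15, 8, 10 and 11 reads in cKO. Every cKO library was below every CON library, which held for 9.10% of all tested genes. The mean was 1.27 CPM (SD 0.324, n = 4) in CON and 0.573 CPM (SD 0.143, n = 4) in cKO, and *Selp* fell to 0.451 of its CON level (log2 fold change -1.15, SE 0.30, 95% interval -1.82 to -0.48, edgeR adjusted p = 0.0494). The count filter asked for 0.544 CPM in at least 4 libraries, and *Selp* met this level in 4 CON and 2 cKO libraries, so it entered the test mainly through the group in which it was higher. The call stood at the edge of the threshold. Without cKO 4 the adjusted p was 0.0481, and without any other single library it was 0.0719 to 0.135. Without CON 1 and CON 3 the log2 fold change was -0.89 (SE 0.38, adjusted p = 0.217).

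The other selectin of the vessel wall, *Sele*, was barely detected. CON libraries had 7, 5, 5 and 5 reads and cKO libraries 4, 2, 7 and 16. On the CPM scale CON ranged from 0.176 to 0.366 and cKO from 0.125 to 1.11, with cKO 4 above all others, and the ranges overlapped. No difference was detectable at this depth. With every counted gene admitted to the test, the log2 fold change of *Sele* was 0.53 (SE 0.67, edgeR adjusted p = 0.668). The positive sign rests on cKO 4: relative to the endothelial markers of the same library, the difference of mean log2 ratios for *Sele* was 0.25 with all libraries and -0.35 without cKO 4.

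*Icam1*, the counter-receptor of LFA-1 and Mac-1, was the endothelial partner with the most even level. It had 26.2, 24.8, 22.2 and 25.1 CPM across the CON libraries and 19.6, 17.8, 25.9 and 23.2 CPM across the cKO libraries. The genotypes overlapped, since cKO 3 lay above 3 of the CON libraries. The log2 fold change was -0.19 (SE 0.11, 95% interval -0.44 to 0.07, edgeR adjusted p = 0.308), an interval that does not include a fall by the 1.5-fold of the call.

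*Vcam1*, the other immunoglobulin-type ligand, was the tested member whose cKO libraries lay farthest apart. The CON libraries had 14.8, 16.1, 18.5 and 20.9 CPM of it, and the cKO libraries 9.52, 7.48, 24.9 and 25.4 CPM. Thus cKO 1 and cKO 2 were below all CON libraries and cKO 3 and cKO 4 above all of them. The means were 17.6 CPM (SD 2.67, n = 4) and 16.8 CPM (SD 9.65, n = 4), with a log2 fold change of -0.07 (SE 0.37, 95% interval -0.91 to 0.78, edgeR adjusted p = 0.929). Without cKO 1 and cKO 2 the log2 fold change of *Vcam1* was 0.52, below the 1.5-fold needed for a call. These libraries were singled out by their low *Vcam1*, so the turned sign follows from that choice and is not a test. In the same pair of libraries the summed endothelial markers were 903 and 984 CPM, beside 1122 and 1138 CPM in cKO 3 and cKO 4 and 1098 to 1249 CPM in CON, and their part in the result was not tested.

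**Figure D2:**
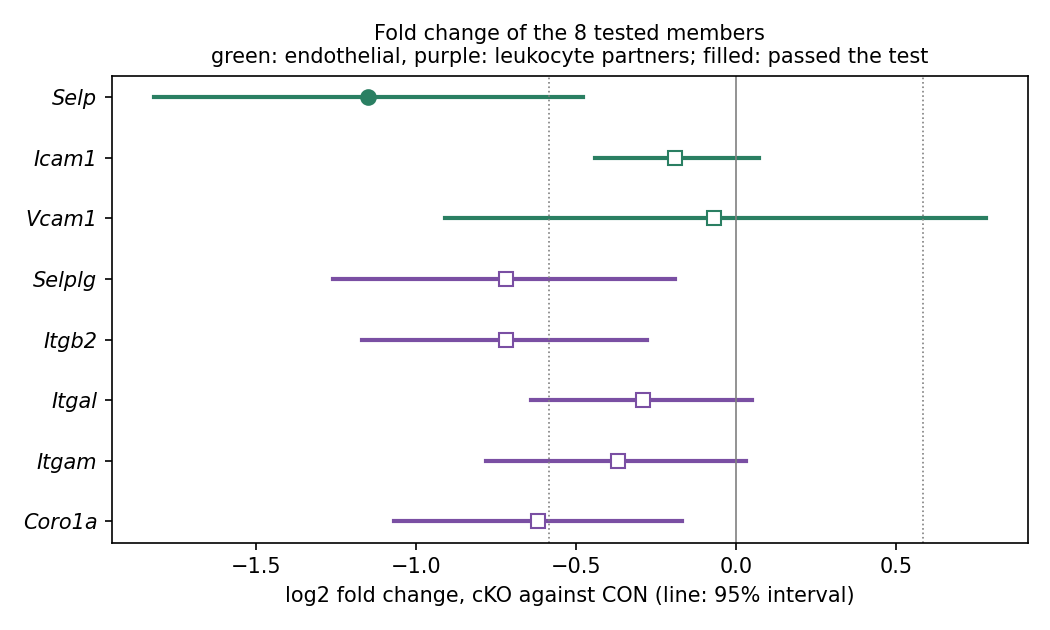
Log2 fold change of cKO against CON (x axis) for the 8 tested members, with lines for the 95% interval, dotted lines at a 1.5-fold change, green for endothelial and purple for leukocyte partners, and a filled point where the test was passed. *Selp* lies at -1.15 and is the filled point, *Vcam1* has the widest interval (-0.91 to 0.78), and the intervals of *Selplg*, *Itgb2* and *Coro1a* end below 0.

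Among the leukocyte partners, *Selplg* and *Itgb2* had the same log2 fold change to 2 decimals, -0.72, and neither passed the test. *Selplg*, the ligand by which leukocytes roll on P-selectin, had 4.91, 3.48, 6.77 and 5.78 CPM across the CON libraries and 2.25, 3.11, 3.93 and 3.32 CPM across the cKO libraries. CON 2 was within the cKO range, and the other CON libraries were above it. The SE was 0.24 and the edgeR adjusted p was 0.0849 (95% interval -1.26 to -0.19).

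*Itgb2*, the beta chain shared by LFA-1 and Mac-1, was the leukocyte partner nearest to the threshold. Its levels were 9.87, 5.73, 10.6 and 9.45 CPM across the CON libraries and 5.74, 4.36, 6.13 and 5.11 CPM across the cKO libraries. Here too CON 2 alone among the CON libraries fell within the cKO range. The log2 fold change of -0.72 (SE 0.20, 95% interval -1.17 to -0.28) had an edgeR adjusted p of 0.0553.

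The alpha chains that pair with it had smaller differences. *Itgal* ranged from 5.55 to 7.10 CPM among CON libraries and from 4.30 to 6.43 CPM among cKO libraries, with cKO 3 above CON 2 and CON 3. Its log2 fold change was -0.29 (SE 0.15, 95% interval -0.64 to 0.05, edgeR adjusted p = 0.237). *Itgam* had 14.2, 8.61, 12.9 and 10.7 CPM across the CON libraries and 11.4, 7.60, 8.03 and 8.5 CPM across the cKO libraries, so that 3 cKO libraries were below all CON libraries and cKO 1 was not. Its log2 fold change was -0.37 (SE 0.18, 95% interval -0.78 to 0.03, edgeR adjusted p = 0.203), and without CON 1 and CON 3 it was -0.11. *Itgam* shares 68.7% of its exonic bases with the predicted gene *Gm49368* on the same strand. *Gm49368* had no row in the count table, so no reads were listed under it, and how reads in the overlap were handled was not tested.

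*Coro1a*, the actin-binding coronin of blood cells, stood at 19.6, 15.4, 30.1 and 20.4 CPM across the CON libraries and at 12, 11.7, 15.5 and 16.3 CPM across the cKO libraries. CON 3 was the highest library, and CON 2 lay within the cKO range. The log2 fold change was -0.62 (SE 0.20, 95% interval -1.07 to -0.17, edgeR adjusted p = 0.0835). Under DESeq2, the tool named in the study's methods, *Selplg*, *Itgb2* and *Coro1a* passed (adjusted p of 0.0400, 0.0113 and 0.0225), whereas *Selp* was given no adjusted p because its mean count was low. Under limma-voom these 3 had adjusted p of 0.120, 0.113 and 0.112.

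Per kilobase of exon, the order in CON was *Coro1a* (7.69 CPM per kb), *Icam1* (5.64), *Itgb2* (2.92), *Itgam* (2.31), *Vcam1* (1.98), *Selplg* (1.23), *Itgal* (0.959), *Selp* (0.289) and *Sele* (0.0961). The library ranges overlapped between *Coro1a* and *Icam1*, between *Itgb2*, *Itgam* and *Vcam1*, and between *Selplg* and *Itgal*, and not between *Selp* (from 0.199) and *Sele* (up to 0.126). *Icam1* was thus the leading endothelial partner and the selectins were the lowest members on this scale.

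The marker lists place the leukocyte partners beside the blood cells of each library. The summed neutrophil markers reached 130 CPM in CON 1 and 207 CPM in CON 3. They stood at 27.0 CPM in CON 2, at 33.0 CPM in CON 4 and at no more than 27.0 CPM in any cKO library. Of 15 neutrophil markers 7 were tested and none was at 0 in every library. *Mmp9*, a protease of neutrophil granules, was the neutrophil marker that passed (log2 fold change -2.27, SE 0.51, edgeR adjusted p = 0.0389). It too was highest in CON 1 and CON 3, with 17.3, 5.59, 17.5 and 4.12 CPM across the CON libraries. Over 18 other settings its log2 fold change ranged from -2.54 to -1.09, and its adjusted p was under 0.05 in 8 of them. The 5 leukocyte partners together had 55.7, 39.1, 65.9 and 53.0 CPM across the CON libraries and 31.1 to 40.0 CPM across the cKO libraries, so their sum was highest in the same CON 3 and lowest among CON libraries in CON 2. CON 4, lower in neutrophil markers than CON 1 and CON 3, had a sum of the leukocyte partners above all cKO libraries. Its neutrophil marker sum was also above all cKO libraries. The red cell lineage markers likewise summed to 183 CPM in CON 1, 107 CPM in CON 3 and 22.6 to 42.9 CPM elsewhere. Macrophage markers, of which 11 of 11 were tested and 0 passed, summed to 321 to 395 CPM among CON and 320 to 428 CPM among cKO libraries. The part of these cells in the differences of the members was not tested. Without CON 1 and CON 3, the log2 fold changes were -0.55 for *Selplg*, -0.49 for *Itgb2* and -0.37 for *Coro1a*, with edgeR adjusted p of 0.310, 0.269 and 0.273.

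**Figure D3:**
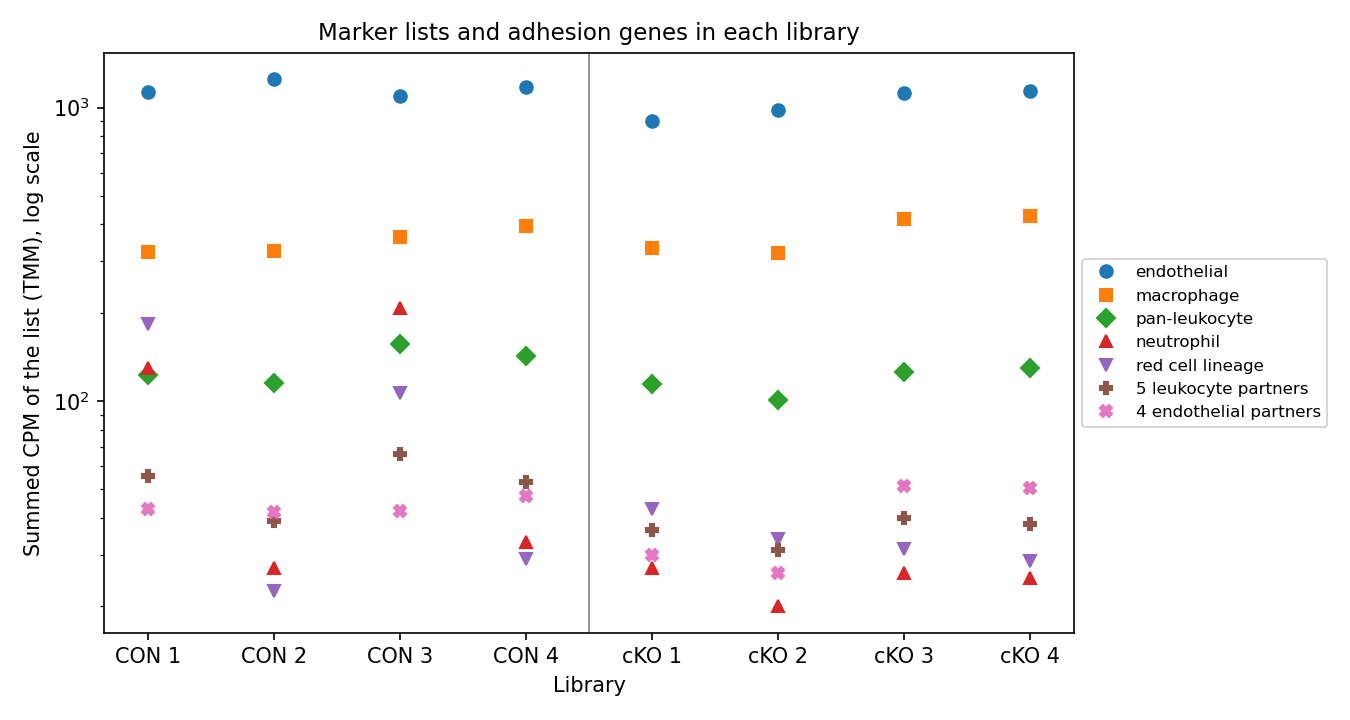
Summed CPM (y axis, log scale) of 5 marker lists and of the 2 groups of adhesion genes in each of the 8 libraries (x axis). Neutrophil and red cell lineage markers are high in CON 1 and CON 3 (130 and 207, and 183 and 107 CPM), and the endothelial partners are low in cKO 1 and cKO 2 (29.8 and 25.9 CPM).

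The counts of each member were divided by the summed counts of marker genes in the same library. Endothelial markers served for the vessel side and pan-leukocyte markers for the blood side. Which cells the reads of the members came from was not tested, so the ratios are not levels per carrying cell. In this measure the genotypes did not overlap for *Selp* and *Coro1a*. *Selp* made up 0.147, 0.0704, 0.117 and 0.107% of the endothelial marker counts in CON 1 to CON 4 and 0.0667, 0.0507, 0.0385 and 0.0668% in cKO 1 to cKO 4 (difference of mean log2 ratios -0.98, two-sided exact permutation p = 0.0286, the smallest that 4 against 4 allows). *Coro1a* made up 16.0, 13.4, 19.1 and 14.3% of the pan-leukocyte marker counts in CON and 10.5, 11.6, 12.3 and 12.5% in cKO (-0.41, exact permutation p = 0.0286). These are 2 of 9 ratios, unadjusted, and no share over all genes was computed for ratios. In CPM, all cKO values were below all CON values for 9.10% of all tested genes and above them for 8.93%. *Selp* was among the genes below, so its ratio repeats a separation already present in CPM. Without CON 1 and CON 3 the differences were -0.68 for *Selp* and -0.24 for *Coro1a*. For *Itgb2* the difference was -0.52 (exact permutation p = 0.0571) and for *Selplg* -0.53 (0.0857). For *Itgal*, *Itgam*, *Icam1*, *Vcam1* and *Sele* it was between -0.19 and 0.25, with exact permutation p from 0.457 to 0.914. The pan-leukocyte markers themselves summed to 115 to 157 CPM among CON and 101 to 130 CPM among cKO libraries. Of the 10 pan-leukocyte markers 0 passed, 9 had a negative sign and 1 was lower at an unadjusted p under 0.05, with a median log2 fold change of -0.24. Of the 18 endothelial markers 0 passed, 17 had a negative sign and 3 were lower at an unadjusted p under 0.05, with a median of -0.16. Among all tested genes 50.1% had a negative sign, and 13.3% were lower at an unadjusted p under 0.05.

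**Figure D4:**
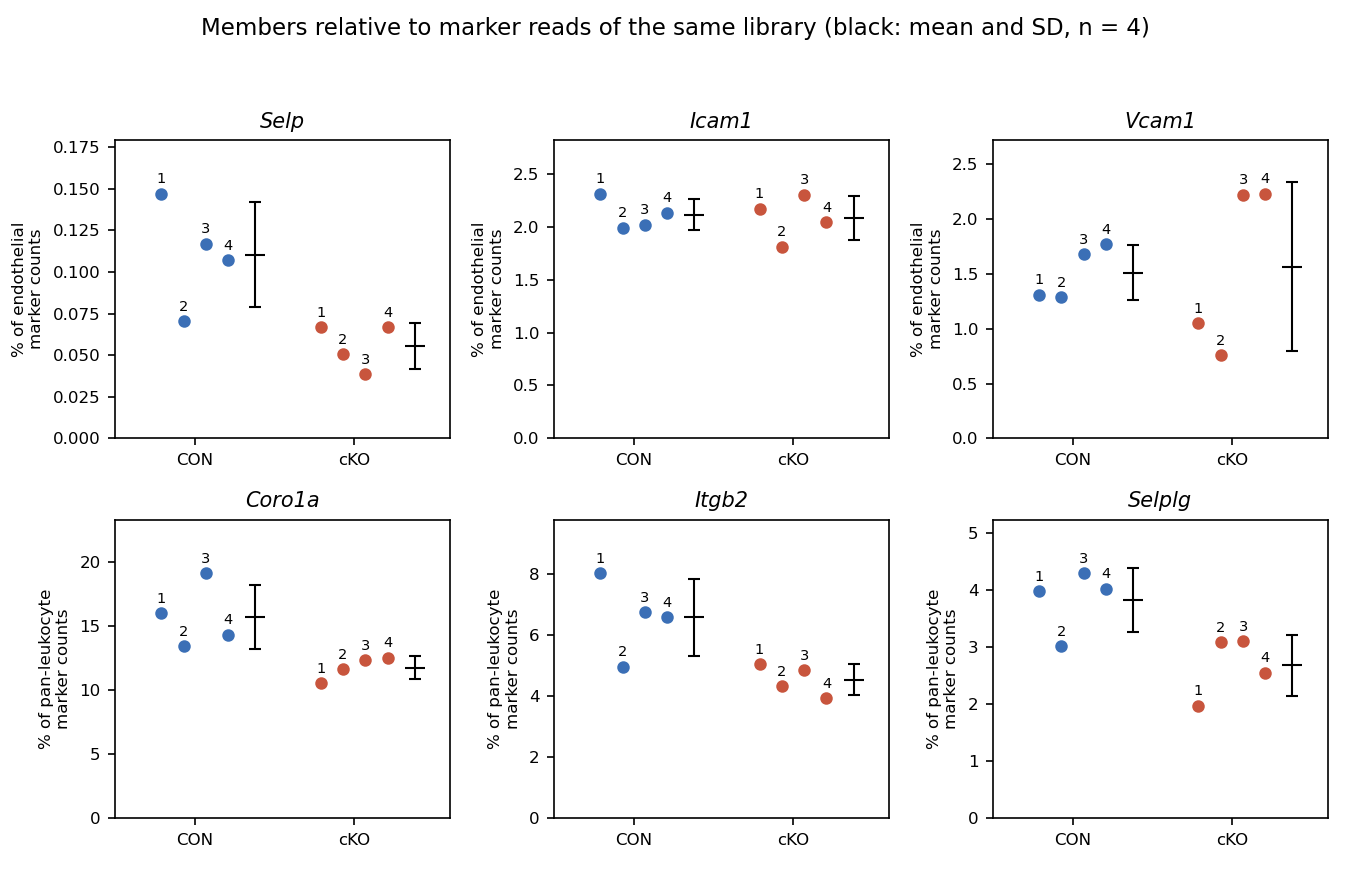
Counts of 6 members as a percentage of the marker counts of the same library (y axis, starting at 0), endothelial markers for *Selp*, *Icam1* and *Vcam1* and pan-leukocyte markers for *Coro1a*, *Itgb2* and *Selplg*, with library numbers and the mean and SD in black (n = 4 per genotype). The cKO libraries are below all CON libraries for *Selp* and *Coro1a* and overlap with them for the other 4.

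Receptor and ligand were also compared within libraries, in 11 ratios chosen after the values had been seen and left unadjusted. *Selp* was lower relative to *Icam1*, with 0.0354 to 0.0639 *Selp* reads per *Icam1* read in CON and 0.0167 to 0.0327 in cKO (difference of mean log2 ratios -0.95, exact permutation p = 0.0286). Every cKO library was already below every CON library for *Selp* in CPM, so this ratio is not separate evidence. For *Selp* over its ligand *Selplg* the difference was -0.43 and the ranges overlapped (exact permutation p = 0.286). *Selplg* over *Itgb2* differed by -0.00 (exact permutation p = 1), and *Coro1a* over *Itgb2* by 0.12 (0.600). The integrin chains gave 0.40 for *Itgal* over *Itgb2* (exact permutation p = 0.114) and 0.34 for *Itgam* over *Itgb2* (0.0857). A difference between the alpha chains and the beta chain was therefore not established by these 4 libraries per genotype.

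Genes of the wider pathway were read beside all tested genes. Of 86 listed genes of rolling, integrin activation, actin remodelling, diapedesis, P-selectin storage and cytokine induction that are no members, 77 were tested. Of these, 1 passed lower and 0 higher, beside 0.518% lower and 136 of 15257 higher among all tested genes. A negative sign was held by 48, beside 50.1% of all tested genes, and the median log2 fold change was -0.06. The gene that passed was *Thy1*, a glycoprotein of activated endothelium and stromal cells that binds Mac-1 and is also made by T cells. It had 28.3, 49.3, 38.1 and 27.3 CPM across the CON libraries and 17.5, 18.3, 18.2 and 26.2 CPM across the cKO libraries (log2 fold change -0.85, SE 0.21, edgeR adjusted p = 0.0457). No cKO library reached the CON range, and such a separation below CON held for 9.10% of all tested genes. *Thy1* is also in the study's migration terms. *Jam2*, a junctional adhesion molecule of endothelium, was higher in cKO with an adjusted p of 0.0203 but a log2 fold change of 0.37 (SE 0.07), under the 1.5-fold of the call. Its 4 cKO libraries, from 68.1 to 81.3 CPM, were all above the CON libraries, from 54.5 to 63.4 CPM, which held for 8.93% of all tested genes.

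Among the integrin ligands, *Icam2* had -0.45 (SE 0.19, adjusted p = 0.157). *Itgb7*, the beta chain of gut-homing integrins, had -0.57 (SE 0.29, adjusted p = 0.217). For integrin activation, *Cytip*, a cytohesin partner of lymphoid cells, had -0.84 (SE 0.26, adjusted p = 0.0764), with all cKO libraries below CON. *Skap2*, an adaptor in integrin signalling, had 0.21 (SE 0.07, adjusted p = 0.0737), with all cKO libraries above CON. All 4 cKO values lay below all 4 CON values for 9.10% of all tested genes and above them for 8.93%. *Gcnt1*, an enzyme that builds the branched sugars of selectin ligands, had -0.36 (SE 0.12, adjusted p = 0.0907), and *Lsp1*, an actin-binding protein of leukocytes, had -0.39 (SE 0.13, adjusted p = 0.0916).

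Genes of P-selectin storage and induction had medians near 0. Of 9 storage granule genes 8 were tested and 0 passed, with a median log2 fold change of 0.03. *Vwf*, the granule protein stored with P-selectin, had 0.15 (SE 0.16, edgeR adjusted p = 0.567), and *Cd63*, a membrane protein of the same granules, had -0.32 (SE 0.12, adjusted p = 0.110). *Rab3d*, a small GTPase of secretory granules, had the smallest p of this list and went the other way (0.33, SE 0.09, adjusted p = 0.0602). Of 13 cytokine and NF-kappaB genes 10 were tested and 0 passed, with a median of 0.05, and *Rel*, an NF-kappaB subunit, had 0.56 (SE 0.22, adjusted p = 0.127). Of 9 platelet and megakaryocyte markers, cells that also hold P-selectin, 3 were tested and 0 passed, and their sum ranged from 24.7 to 32.6 CPM among CON and from 23.3 to 31.7 CPM among cKO libraries.

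Over the 8 libraries, the transcripts most like *Selp* by Pearson's r of log2 CPM were *Slc25a25* (0.974), *Fkbp4* (0.972) and *Ltb4r1* (0.945), followed by *Rnf10* and *Nsg2*. *Ltb4r1* encodes the leukotriene B4 receptor of leukocytes and had a log2 fold change of -1.11 (edgeR adjusted p = 0.0432). Those most like *Itgb2* were *Ikzf1* (0.968), a lymphoid transcription factor, *Krt13*, *H2aj*, *Cd52* and *Ncf1*, and those most like *Coro1a* included *Rrp1*, the pan-leukocyte phosphatase *Ptprc* (0.949), *Riok2* and *Cd53*. *Cd52*, *Ptprc* and *Cd53* are on the pan-leukocyte marker list, and *Ncf1* encodes a subunit of the phagocyte oxidase. The points share library, depth and genotype, and the values are a description.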

How the data were processed

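RNA of whole PND4 ovaries was made into stranded mRNA libraries and sequenced in pairs by the authors. Per the labels and the study's methods, reads were aligned to GRCm38 (mm10) with STAR and counted per gene with featureCounts (versions and strand setting not given in the sources used here), and the authors deposited whole-number counts per gene. A further table of the authors' DESeq2 comparison (fold changes and p-values) was not used. Since column names show the genotype but match no single title, libraries are numbered as the columns are.

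Gene identifiers were joined to symbols for 99.7% of 24823 rows. Counts were tested with edgeR 4.0.16 in R 4.3.3 (TMM, filterByExpr, robust quasi-likelihood F test of cKO against CON, no covariates), with Benjamini-Hochberg adjustment over 15257 genes. DESeq2 1.42.0 and limma-voom (limma 3.58.1) were alternatives, beside other scalings, other filters and leaving out each library. Fits without CON 1 and CON 3, and fits without cKO 1 and cKO 2, were added after seeing the data. Ratios were compared by exact permutation over 70 assignments. The scripts were tested on simulated data. The members, marker lists and pathway lists were chosen with earlier results of these data known. Named are the 9 members, up to 4 genes with the smallest p in each list, and the 5 genes most alike to *Selp*, *Itgb2* and *Coro1a*. The values of *Nr5a2* and the overlapping gene were named after they were seen. Promoters are from RefSeq (GRCm38.p6), and protein sequences were not used here. Some genes that this rule names are not reported here.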

Additional observations from a re-analysis of the deposited data

Results flagged for a closer look

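*Sele* in cKO 4 stood far from the other cKO libraries. Its counts were 0.0972% of the endothelial marker counts, on 16 reads, beside 0.0127 to 0.0269% in cKO 1 to cKO 3, and the gap to the next library was 0.831 of the range, above Dixon's critical value. This was 1 of 36 groups of 4 values examined, and chance flags about 1 in 20 such groups.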

How the results depend on the processing

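No paired analysis was possible because the replicate numbers in the titles are not shared between the genotypes and the columns carry another numbering. All 8 tested members kept a negative sign under the other scalings, filters and tools, except *Vcam1* under limma-voom with quality weights, and their calls changed more than their signs. The count of members passing lower was 0 instead of 1 with library sizes alone, with every gene of at least 1 count, with at least 10 counts in every library (which leaves *Selp* untested), with limma-voom, without CON 1 and CON 3, and without cKO 1 and cKO 2, and it was 3 with DESeq2. Leaving out 1 library gave 0 to 1. For *Vcam1*, the log2 fold change was 0.52 without cKO 1 and cKO 2, and its ratio to endothelial markers differed by 0.57. The sign of both values follows from leaving out the libraries that were low in *Vcam1*. For *Selp* over endothelial markers the difference was -0.88 with *Pecam1* alone and -0.84 with the mean of the markers' log2 CPM. Each had an exact permutation p of 0.0571 over all 8 libraries, above the 0.0286 of the main ratio. The *Selp* difference was -0.68 without CON 1 and CON 3, -1.07 without cKO 1 and cKO 2, and -1.18 to -0.81 without 1 library. For *Coro1a* over leukocyte markers the difference was -0.25 with *Ptprc* alone (exact permutation p = 0.0571) and -0.31 with the mean of the markers' log2 CPM (0.0286). The *Coro1a* difference was -0.24 without CON 1 and CON 3, -0.32 without cKO 1 and cKO 2, and -0.48 to -0.31 without 1 library. With 4 against 3 libraries the exact test cannot go below 0.0571, and with 4 against 2 not below 0.133.

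Over all genes, 79 passed lower and 136 higher, against 150 and 248 with DESeq2, 191 and 297 with quality weights, 14 and 55 without CON 1 and CON 3, 157 and 61 without cKO 1 and cKO 2, 501 and 555 at an adjusted p under 0.05 alone, and 0 to 105 and 0 to 322 without 1 library. The 0 came from leaving out CON 2 or CON 3, where edgeR found 1565 and 1488 genes lower and 1749 and 1771 higher at an unadjusted p under 0.05. Pathway genes that passed lower were 0 with every gene of at least 1 count and without CON 1 and CON 3, 2 with quality weights and 0 to 1 without 1 library. Those that passed higher were 1 with quality weights or at an adjusted p alone, and 0 to 1 without 1 library. The causes were not tested. The low counts of *Selp* and *Sele* limit their precision.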
